A study of Mus musculus with 10 samples.

Results

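Internal transcribed spacer 1 (ITS1) is the stretch of the 45S pre-rRNA between 18S and 5.8S rRNA. Its 1000 positions, 5878 to 6877 in the numbering of the deposited tables, were taken out of 13400 positions of the 45S by coordinate alone, with no measured value used. Each position was described by 2 measures. One is the number of read ends there per 1000000 read ends on the whole 45S of that library, written EPM below. The other is the RiboMeth-seq score, read where the weighted mean count of the flanking positions reached 10.

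ITS1 is transcribed by RNA polymerase I together with the mature rRNAs and the other spacers. It is removed by endonuclease cuts inside it and by exonucleases that trim back to the mature ends, so its RNA reports on precursors and processing fragments and is scarce next to the mature rRNAs. The mature 5.8S is known in a short and a long form, and the long form begins a few nucleotides further upstream, in what is otherwise ITS1. Known 2′-O-methyl marks of rRNA lie in the mature sequences, where box C/D small nucleolar RNAs (snoRNAs) guide fibrillarin to the target base.

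The study used RiboMeth-seq, in which RNA is partly hydrolysed by alkali and the ends of the fragments are counted, so that a methylated ribose shows as a position with few ends. It compared the knockdown of each of 2 box C/D snoRNAs, Snord101 and Snord89, with its own controls, to find the positions each guides. There were 10 libraries in 5 groups of 2, labelled as biological replicates A and B. No label says more about how cultures were kept apart, so p-values here measure the spread between these libraries.

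One group was untreated mouse embryonic stem cells (ESCs), kept in serum and LIF. The other 4 groups were neurons made from ESCs by doxycycline-induced Ngn2, so every neuron group shared the transgene, the doxycycline and an antisense oligonucleotide (ASO) taken up freely from the medium at 10 uM for 72 to 96 hours. The Snord101 set held 2 libraries with the Snord101 ASO and 2 controls, and the Snord89 set held 2 libraries with the Snord89 ASO and 2 controls of its own. Both control groups received a non-targeting ASO. No ITS1 sequence was used here, so bases are not named. The Snord101 ASO is shown because it is the labelled difference between that knockdown and its controls. It is a MOE gapmer of 20 bases, and the capitals mark the central gap of 10 bases between wings of 5:
Snord101 ASO: gggtaTCCGACAATTcaagt

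The ESC libraries held 16170997 and 18914207 ends on the 45S, and the 8 neuron libraries held 79070492 to 143176321. Of these, 347969 to 396660 ends in ESCs and 794341 to 1917085 ends in neurons lay in ITS1. The ESC table counts 5′ ends and both neuron tables add 5′ and 3′ ends, so levels and scores of ESCs and neurons are different measures and no test was made between them. One read end was worth 0.0529 and 0.0618 EPM in the ESC libraries and 0.00698 to 0.0126 in the neurons. The positions analysed are those of the 45S, so neither the level of the targeted snoRNAs nor markers of ESCs or neurons were measured here.

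Most ends in ITS1 came from its last 9 positions, 6869 to 6877, which belong to a run of dense coverage that leads into 5.8S. Dense here means a median of at least 5 EPM over 101 neighbouring positions in the control libraries, and this run went from 6869 to 7041. The 9 positions held 91.0% and 92.3% of ITS1 ends in ESCs, 91.9% to 94.1% in the Snord101 set and 85.3% to 89.8% in the Snord89 set. The 991 positions before them, called the ITS1 body below, held 1877 and 1656 EPM in ESCs and 855 to 1296 in neurons. Any total over ITS1 is therefore mainly a statement about the junction with 5.8S.

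**Figure D1:**
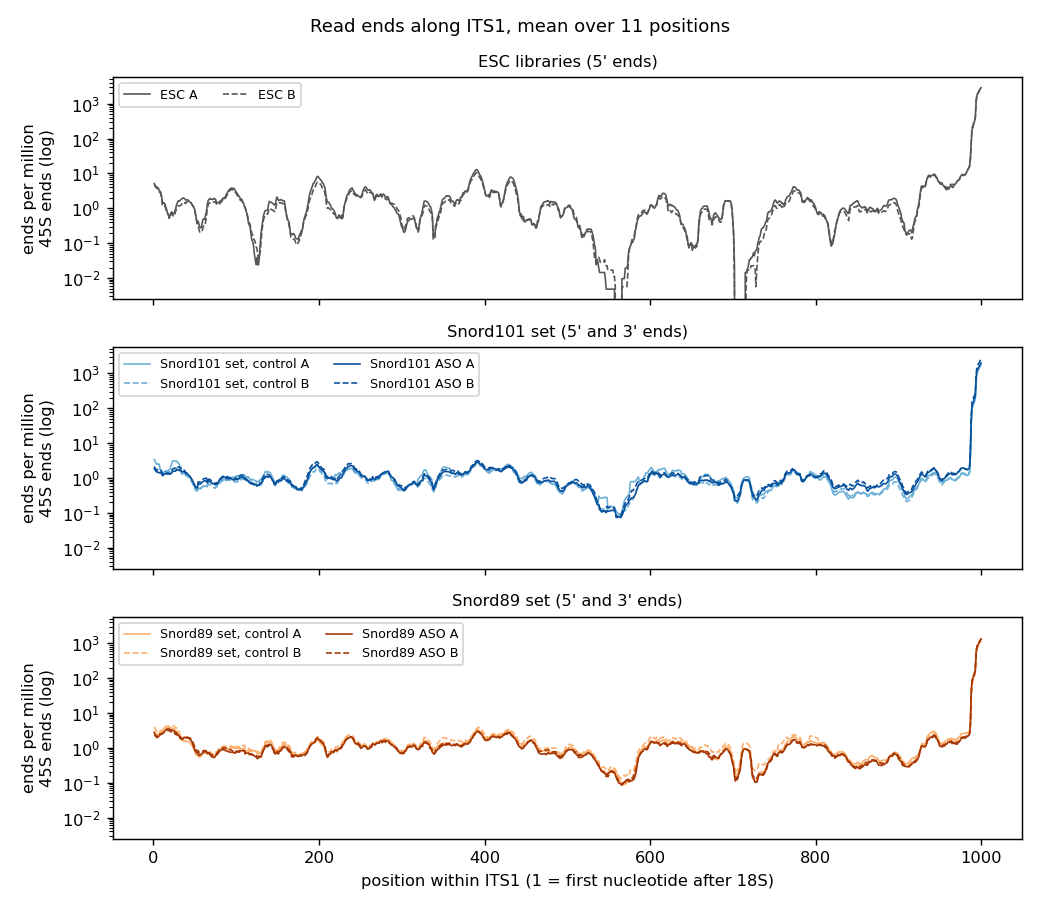
EPM (ends per 1000000 45S ends, log axis) against position within ITS1, averaged over 11 positions, for each library (solid A, dashed B), in ESCs (top), the Snord101 set (middle) and the Snord89 set (bottom). Levels along the body were uneven, most of all in ESCs, and were highest at the last 9 positions, and lines leave the axis where ESCs had no end in the averaged positions.

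The 10 positions of ITS1 with the highest mean level were the last 10, 6868 to 6877. Position 6876 stood highest, with 8656 and 9072 EPM in ESCs, 4724 and 5120 in the Snord101-set controls, 5650 and 7227 with the Snord101 ASO, 4173 and 3548 in the Snord89-set controls and 4078 and 4208 with the Snord89 ASO. At the last position, 6877, the same libraries had 6289 and 6421, 4704 and 5091, 5155 and 6768, 2699 and 2381, and 2869 and 2931 EPM. The first position labelled 5.8S, 6878, had 257 to 523 EPM, so the peak fell on the last 2 positions counted as ITS1. Which nucleotide of a fragment end each count is assigned to is not given in the sources used here, so ends of mature 5.8S and ends inside ITS1 cannot be told apart at these positions.

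A smaller peak lay a few nucleotides upstream, at position 6871. It reached 1298 and 1420 EPM in ESCs, 760 to 1140 in the Snord101 set and 429 to 590 in the Snord89 set, with 96.5 to 219 EPM at the next position, 6872. Below it the signal fell steeply: position 6869 had 115 and 122 EPM in ESCs and 23.1 to 43.9 in neurons, and position 6868 had just over 28 in both ESC libraries and 3.34 to 5.37 in neurons. Both peaks were in all 10 libraries.

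The shape of the junction differed between the sets of libraries more than between knockdown and control. The level at 6877 over that at 6876 was 0.727 and 0.708 in ESCs, 0.996 and 0.994 in the Snord101-set controls and 0.912 and 0.936 with the Snord101 ASO. In the Snord89 set it was 0.647 and 0.671 in the controls and 0.703 and 0.696 with the ASO. The last 9 positions held 38.6% and 38.0% of the ends of the whole dense run in ESCs, 26.9% to 35.8% in the Snord101 set and 17.7% to 19.5% in the Snord89 set. The 2 control groups had nominally the same treatment and did not overlap in either measure, and the cause was not tested.

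**Figure D2:**
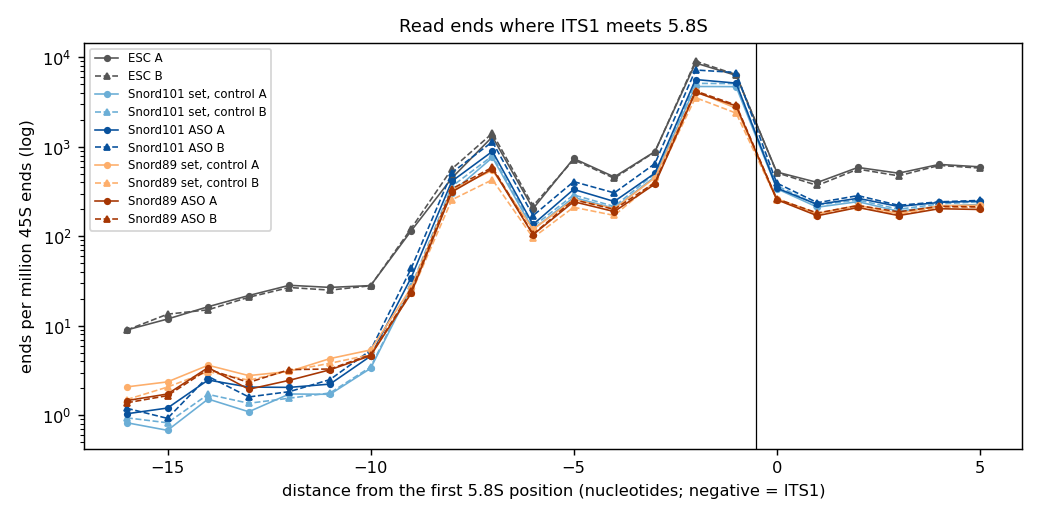
EPM (ends per 1000000 45S ends, log axis) at the last 16 positions of ITS1 and the first 6 of 5.8S, against the distance from the first 5.8S position, one line per library (circles A, triangles B). The last 2 ITS1 positions are the peak in all 10 libraries, and position 6871 is a smaller peak.

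The other border looked different. On the 18S side, position 5876, the last but 1 of 18S, had 31.1 to 59.1 EPM in the neuron libraries and 7.51 and 6.25 in ESCs, whose table leaves out 3′ ends. The first 10 positions of ITS1 together held only 15.0 to 39.0 EPM. At position 5883 the level was 0.186 and 0.211 in ESCs and 0.357 to 1.38 in neurons, against 4.33 to 8.04 at 5881 in ESCs and the Snord89 set and 3.07 to 3.75 in the Snord101 set.

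Along the body the level was low and uneven. The median position of ITS1 had 0.846 and 0.742 EPM in ESCs, 0.730 to 0.933 in the Snord101 set and 0.823 to 1.03 in the Snord89 set. For comparison within neurons, the median position of 18S had 114 to 134 EPM. Split into 10 windows of 100 positions from the 18S side, ITS1 had its lowest sum in window 6, positions 6378 to 6477, in 8 of 10 libraries. That window held 27.7 and 30.1 EPM in ESCs and 39.4 to 61.0 in neurons. The exceptions were control A of the Snord101 set, with 54.0 EPM in window 6 and 53.7 in window 9, and control B of the Snord89 set, with 61.0 and 59.3. Window 4, positions 6178 to 6277, was the highest of windows 1 to 9 in ESCs, with 270 and 224 EPM, and held 110 to 176 in neurons.

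Single positions that stood out in the body were chosen after their values were seen. Position 6268, in a raised stretch from 6264 to 6271, had 16.0 and 11.6 EPM in ESCs, 3.29 to 3.95 in the Snord101 set and 3.86 to 4.82 in the Snord89 set. Position 6817 had 15.5 and 13.4 EPM in ESCs, 2.36 to 4.09 in the Snord101 set and 4.12 to 5.64 in the Snord89 set. Both places were raised in all 10 libraries above the median of 0.730 to 1.03.

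ESC libraries had a more uneven body than neuron libraries. The 50 highest body positions held 33.6% and 34.1% of its ends in ESCs and 14.8% to 17.9% in the 8 neuron libraries. In ESCs, 106 and 116 positions of ITS1 had no end, 74 of them in both libraries, whereas no neuron library had a position at 0. The longest run with no end in either ESC library was 22 positions, 6575 to 6596, where the neuron libraries averaged 0.510 to 0.795 EPM. A second run of 17 positions, 6431 to 6447 in window 6, averaged 0.0774 to 0.182 in neurons. A count of 0 allows up to 3 ends, which is 0.159 and 0.186 EPM at a position in the ESC libraries. Over a whole empty run the limit is 3 ends in all, or a mean per position of 0.00721 and 0.00843 EPM in the first run and 0.00933 and 0.0109 in the second. The ESC libraries had 5′ ends only and fewer ends in all, and the part of each in the empty runs was not tested.

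The 2 libraries of a group ranked the body positions alike. Spearman's rho across the 991 positions, which are not independent and share their library, was 0.920 to 0.964 between A and B of a group. It was 0.823 to 0.962 between neuron libraries of different groups and 0.564 to 0.704 between ESC and neuron libraries, which count different ends. As a check for a library entered more than once, counts of A and B were compared with counting noise alone, and in ITS1 chi-square per degree of freedom ran from 1.54 for the Snord89 knockdown to 10.8 for the Snord101-set controls.

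With the Snord101 ASO, both libraries had more ITS1 ends per 45S end than both controls. In number of ends the difference lay mostly in the last 9 positions, with means of 12057 EPM in the controls and 15294 with the ASO. By ratio, windows 9 and 10 were the highest of the 10. ITS1 totals were 12601 and 13386 EPM in the controls and 14339.6 and 18310.5 with the ASO, so the groups did not overlap. The means were 12994 ± 555 and 16325 ± 2808 (SD, n = 2 each), a ratio of 1.25 (log2 0.32). The log2 ratio was 0.14 without ASO library B and 0.50 without ASO library A. The exact two-sided permutation test gave p = 0.333, the smallest that 2 libraries against 2 allow. The body alone had 1017 and 855 EPM in the controls and 976 and 1086 with the ASO, which overlapped (log2 0.14, exact permutation p = 0.667). As a share of the ends outside the dense runs, the body held 10.8% and 9.96% in the controls and 13.0% and 12.2% with the ASO, without overlap (log2 0.28, exact permutation p = 0.333, the smallest possible). In bulk libraries, a different amount of precursor in each cell and a different number of cells holding it cannot be told apart.

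No window of ITS1 passed the test for Snord101. The test was edgeR's quasi-likelihood test on ends per window with the library's 45S ends as the size, adjusted by Benjamini-Hochberg over 135 windows of the 45S, of which 2.96% passed at 0.05. None of the 10 ITS1 windows did, 2 had an unadjusted p under 0.05 (20.7% over the 45S), and DESeq2 called 1, against 3.70% of its windows over the 45S. That 1 was window 9, positions 6678 to 6777, with 53.7 and 55.6 EPM in the controls and 75.4 and 88.4 with the ASO. Its log2 ratio was 0.58 (SE 0.28, edgeR adjusted p = 0.239) and 0.64 by DESeq2 (adjusted p = 0.0221). Window 10, which holds the junction, had 11667 and 12611 EPM in the controls and 13475 and 17343 with the ASO (log2 0.34, SE 0.13, edgeR adjusted p = 0.117). Whether it passed depended on which library was left out, and such fits leave 1 library in a group. In windows 9 and 10 each ASO library lay above each control, and the other 8 had log2 ratios of -0.11 to 0.22. Among those 8, window 3 was separated as well, with 119 and 106 EPM in the controls and 126 and 137 with the ASO.

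**Figure D3:**
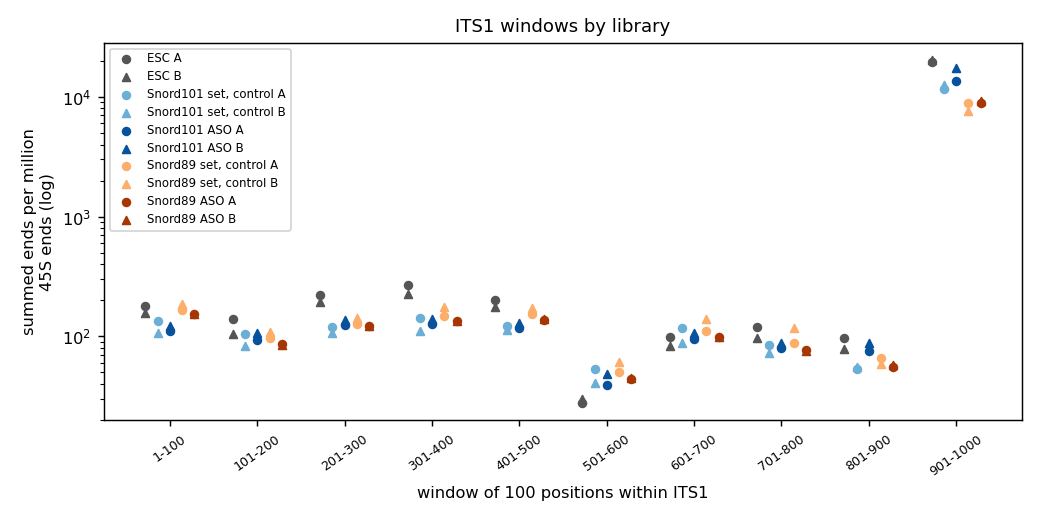
Summed EPM (log axis) in the 10 windows of 100 positions, each point 1 library (circles A, triangles B) coloured by group. In window 9 (801-900) the Snord101 ASO libraries, at 75.4 and 88.4, lie above their controls, at 53.7 and 55.6, and window 6 (501-600) is the lowest in 8 of 10 libraries.

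Finer windows of 20 positions were drawn from 6658 on after these values were seen, and so were not tested. They showed log2 ratios above 0 through window 9 and on into window 10. Nothing before 6658 was divided this way, so a start of the difference was not located. At 6658 to 6677, just before window 9, the 4 libraries had 23.0 and 19.5 EPM in the controls and 19.9 and 20.0 with the Snord101 ASO (log2 -0.09). At 6718 to 6737 they had 6.55 and 6.96 against 11.2 and 13.9 (log2 0.90), the highest ratio of the windows from 6658 to 6877. From there to 6857 the log2 ratios were 0.37 to 0.73. The Snord89 set gave log2 ratios of -0.46 to -0.09 in the windows from 6658 to 6857.

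At single positions, 994 of the 1000 ITS1 positions had a mean of 10 or more ends in the Snord101 set and were tested. By edgeR's test with adjustment over 12947 positions of the 45S, 2 of them passed at 0.05, both higher with the ASO, and 124 (12.5%) had an unadjusted p under 0.05, of which 108 were higher. Over the 45S 13.9% had one, 723 higher and 1076 lower. Over the whole 45S, 1.10% of positions passed in either direction, 0.0541% higher and 1.04% lower. DESeq2 called 3 other ITS1 positions, 5936 and 6840 higher and 6477 lower, and gave no adjusted p for the 2 that edgeR called. Over the 45S DESeq2 called 3.78% of positions, 63 higher and 427 lower. The median log2 ratio of the ITS1 positions was 0.19, against 0.01 over all positions tested.

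Both called positions lay in window 9. Position 6728 had 30 and 30 ends in the controls and 83 and 85 with the ASO, or 0.219 and 0.210 against 0.621 and 0.862 EPM (log2 1.78, SE 0.28, edgeR adjusted p = 0.0188). In the Snord89 set it had 0.307 and 0.267 in the controls and 0.247 and 0.139 with the ASO, and in ESCs 0.793 and 0.618 EPM. Position 6753 had 28 and 26 ends in the controls and 66 and 55 with the ASO, or 0.204 and 0.182 against 0.494 and 0.558 EPM (log2 1.44, SE 0.28, edgeR adjusted p = 0.0455). In the Snord89 set it had 0.402 and 0.366 in the controls and 0.165 and 0.291 with the ASO, and ESCs had 1 end and 0 ends there. Neither pair of groups overlapped in the Snord101 set. These are low positions next to the ITS1 median of 0.730 to 0.933 in that set.

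The call at both positions ended when libraries were scaled by the TMM method (edgeR adjusted p = 0.0636 for 6728 and 0.0957 for 6753), with log2 ratios of 1.75 and 1.41 there. That at 6753 also ended without ASO library B (log2 1.35, edgeR adjusted p = 0.0987). Leaving out 1 library changed how many ITS1 positions passed, from 4 without ASO library B (1 higher, 3 lower) to 9 without ASO library A (8 higher, 1 lower), 19 without control A (all higher) and 95 without control B (40 higher, 55 lower). In that order these were 0.402%, 0.906%, 1.92% and 9.58% of the ITS1 positions, against 1.83%, 1.48%, 4.06% and 17.0% over the 45S. In each case the lone library is assumed to vary like the others.

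The next 3 positions by p did not pass edgeR's test. Position 6727, beside 6728, had 0.161 and 0.154 EPM in the controls and 0.434 and 0.406 with the ASO (log2 1.42, edgeR adjusted p = 0.0622). Position 6754, beside 6753, had 0.131 and 0.210 against 0.434 and 0.487 (log2 1.42, edgeR adjusted p = 0.0798). Position 5936, in window 1, had 1.33 and 1.23 against 2.54 and 3.32 (log2 1.19, edgeR adjusted p = 0.0797), and DESeq2 called it (log2 1.15, adjusted p = 0.00136). At all 3 the groups did not overlap, and neighbouring ends along a precursor share fragments and are not independent.

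**Figure D4:**
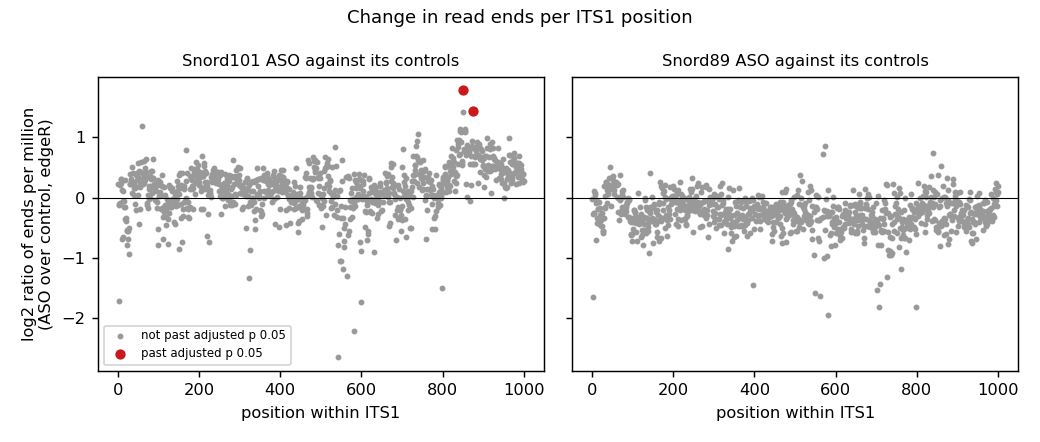
The log2 ratio of EPM, ASO over control (edgeR), for each tested ITS1 position in the Snord101 set (left, 994 positions) and the Snord89 set (right, 984 positions), against position within ITS1. Red points passed an adjusted p of 0.05: 2 in the Snord101 set, at 851 and 876, and 0 in the Snord89 set.

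Both ASO libraries lay above both controls at 453 of the 994 positions (45.57%) and below them at 73 (7.344%), against 26.5% and 19.1% over the 45S. In window 9, 82 of 100 positions lay above and 0 below, and in window 10, 93 and 0. In the other windows, of 94 to 100 positions each, 18 to 56 lay above and 0 to 16 below, from 56 and 0 in window 3 to 18 and 12 in window 7. The median log2 ratio of the positions was 0.65 in window 9, 0.49 in window 10 and 0.01 to 0.25 in the others.

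The junction positions, where counts are highest, did not pass either. At 6869 to 6877 the Snord101 log2 ratios were 0.26 to 0.53, all 9 above 0, and none passed, with the lowest edgeR adjusted p, 0.124, at 6876. In the Snord89 set they were -0.14 to 0.25, and the lowest edgeR adjusted p was 0.400, at 6877.

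The other spacers were set beside the ITS1 body, whose log2 ratio for the Snord101 ASO was 0.14. The 5′ spacer before 18S had 6678 and 6423 EPM in the controls and 5406 and 6534 with the ASO (log2 -0.14, overlapping). The 3′ spacer had 72.8 and 47.4 against 50.0 and 57.8 (log2 -0.13), and its groups overlapped as well. The second spacer, between the 5.8S run and 28S, had 1565 and 1179 against 1007 and 1134 (log2 -0.35), without overlap. The ratio of the ITS1 body to the second spacer, which for Snord101 differed most of the 3 spacer ratios, was 0.650 and 0.726 in the controls and 0.969 and 0.958 with the ASO (log2 0.49, exact permutation p = 0.333, the smallest possible). In the Snord89 set that ratio was 0.914 and 0.856 in the controls and 0.990 and 0.927 with the ASO (log2 0.12), and in ESCs 0.978 and 1.06. The ratio to the 5′ spacer gave log2 0.28 for Snord101 and -0.02 for Snord89, and that to the 3′ spacer 0.27 and 0.21. None of these can go below an exact permutation p of 0.333. The Snord101-set controls were the lowest of all groups in the ratio to the second spacer.

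With the Snord89 ASO, the ITS1 total overlapped with its controls, and the body had fewer ends in both ASO libraries than in both controls. ITS1 totals were 9970 and 8821 EPM in the controls and 9801 and 10082 with the ASO, which overlapped (9396 ± 813 and 9941 ± 198, SD, n = 2 each, log2 0.08, exact permutation p = 0.667). The body had 1162 and 1296 EPM in the controls and 1029 and 1030 with the ASO (log2 -0.25, exact permutation p = 0.333, the smallest possible), without overlap. The size of this difference depended on the scale. As a share of the ends outside the dense runs, the same body held 14.0% and 14.1% in the controls and 14.1% and 14.0% with the ASO (log2 0.0035), and the 5′, second and 3′ spacers had log2 ratios of -0.24, -0.37 and -0.47.

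No ITS1 window passed the Snord89 test, against 5.93% of 135 windows of the 45S, and 1 had an unadjusted p under 0.05 (25.9% over the 45S). DESeq2 called 0 as well, against 2.96%. The 1 by edgeR was window 8, positions 6578 to 6677, with 88.9 and 117 EPM in the controls and 76.8 and 75.5 with the ASO (log2 -0.43, SE 0.18, edgeR adjusted p = 0.114). Windows 1 to 9 had log2 ratios of -0.43 to -0.13 and window 10 had 0.12. Without control A 9 windows passed, 8 of them lower, against 77.8% of the windows of the 45S, and without control B 7 passed, all lower, against 43.0%, where the remaining control is assumed to vary like the other libraries.

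No single ITS1 position passed in the Snord89 set, where 984 were tested and 0.109% of 12878 positions of the 45S passed. At an unadjusted p under 0.05 edgeR listed 88 (8.94%), of which 86 were lower with the ASO, against 11.6% over the 45S, 210 higher and 1288 lower. With ends outside the dense runs as library size it listed 47, against 2720 higher and 365 lower over the 45S. DESeq2 called 0, against 0.846%. At an unadjusted p under 0.05 it listed 18 of the 984, against 523 higher and 490 lower of 12878 over the 45S. Both ASO libraries lay below both controls at 472 positions (47.97%) and above them at 38 (3.862%), against 32.7% and 12.6% over the 45S. The median log2 ratio was -0.25, against -0.09 over all positions, and on the scale of ends outside the dense runs these medians were 0.006 and 0.17. With TMM scaling the ITS1 median was -0.18 and with DESeq2's size factors -0.16. The ITS1 median minus that over all positions was log2 -0.16 and -0.17 on the first 2 scales. A change of library size shifts all positions nearly alike, so this likeness is no further evidence. Without control A 139 ITS1 positions passed (14.1%, against 21.6% over the 45S), without control B 14 (1.45% against 5.40%), and without ASO library A or B 3 each (0.306% against 0.744% and 0.305% against 0.613%).

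The 3 positions of lowest p did not pass in this fit and are given as values. Position 6650 had 1.29 and 1.20 EPM in the Snord89-set controls and 0.706 and 0.632 with the ASO (log2 -0.89, SE 0.22, edgeR adjusted p = 0.262), and 1.44 and 0.831 against 0.785 and 0.791 in the Snord101 set. Position 6587 had 0.381 and 0.378 against 0.165 and 0.114 (log2 -1.43, edgeR adjusted p = 0.285), and no ESC library had an end there. Position 5879, the second of ITS1, had 2.51 and 7.34 against 1.69 and 1.44 (log2 -1.65, edgeR adjusted p = 0.303). Its log2 ratio was -0.68 without control B and -2.22 without control A, each with 1 control left.

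Position 5879 shows how 1 control library can carry a difference. In the Snord101 set it had 9.82 EPM in control A and 2.19 in control B, against 1.65 and 2.01 with the ASO. Position 6675 had 4.63 and 1.08 in the Snord101-set controls, 1.10 and 0.913 with that ASO, 1.92 and 7.31 in the Snord89-set controls and 1.14 and 1.48 with the Snord89 ASO. At both positions Snord101-set control A and Snord89-set control B were high. Of 993 positions compared, 51 were more than 2-fold higher in Snord101-set control A than B and 34 were more than 2-fold higher in Snord89-set control B than A. The 15 found in both were 29.4% of the first list and 44.1% of the second. These directions are those of the 2 positions above. Counts for the opposite directions and for positions outside ITS1 are not given here. The overlap is therefore not shown to be special to these directions or to ITS1. They included 6458, at 4.20 and 0.384 in the Snord101-set controls and 0.169 and 0.744 in the Snord89-set controls, and 6477, at 4.08 and 1.15 and at 0.964 and 2.22. The labels give no batch that links these 2 libraries, and the cause was not tested.

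The difference between the 2 knockdown effects was fitted over the 8 neuron libraries. It was above 0 in all 10 windows, at log2 0.15 to 0.74, and in 63.0% of the windows of the 45S, and none passed edgeR's test, against 0% of the windows of the 45S; 1 had an unadjusted p under 0.05 (5.19% over the 45S), and DESeq2 also called 0. Window 9 was farthest from 0 (log2 0.74, SE 0.24, edgeR adjusted p = 0.832). Of 991 positions tested, 0 passed edgeR's test, against 0.0232% over the 45S, and 163 (16.4%) had an unadjusted p under 0.05, all of them above 0. Over the 45S 6.90% had one, 620 above 0 and 272 below, and 61.8% of all positions were above 0, against 88.2% in ITS1. These directions depended on the scale. With TMM scaling 95 ITS1 positions had one, and over the 45S 254 lay above 0 and 617 below. DESeq2 called 0, against 0.348%. At an unadjusted p under 0.05 it listed 30 of the 991, against 71 above 0 and 569 below of 12931 over the 45S. Lowest in p were 6753 (log2 2.20) and 6728 (log2 2.34), each with an edgeR adjusted p of 0.578, and 6734 (log2 1.51, adjusted p = 0.703). The call of 6728 and 6753 in one set is therefore not shown to differ from the other set.

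The score compares a position with its 6 neighbours on each side, and a value of 0.75 or more was taken as protected. In ESCs, 66 of the 669 ITS1 positions with enough flanking ends in both libraries (9.87%) reached it in both. The mature segments, taken here as the dense runs and so with the last 9 ITS1 positions, gave 842 of 6433 (13.1%). The other spacers, taken as all positions outside the dense runs and ITS1, gave 274 of 3178 (8.62%). They include the end of 18S after 5864. In all 4 neuron control libraries, 12 of 991 ITS1 positions (1.21%) reached it, against 176 of 6755 (2.61%) in the mature segments and 50 of 5190 (0.963%) in the other spacers. ITS1 thus had a share of high scores near that of the other spacers in both tables. With flanking counts of 100 or more only 11 ITS1 positions remained in ESCs, where the median flanking count was 15.7 and 21.7.

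All 12 control positions were also at 0.75 or more in the 4 knockdown libraries, and 10 of them in both ESC libraries. They are 6020, 6812, 6813, 6814, 6865, 6866, 6867, 6868, 6872 and 6874, and the other two are 6864 and 6869. Of the 12, 8 lie within 16 positions of 5.8S, on or below the flank of the junction peak. Their scores depend on those neighbours. When the median of the flanking counts replaced their weighted mean, an alternative chosen after seeing the data, only 6020, 6813 and 6814 of the 12 stayed at 0.75 or more in all 4 controls. Position 6867, for example, went from 0.951 to 0.985 in the controls to 0.0352 to 0.324.

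Positions 6813 and 6814 formed a gap beside a high place that both measures showed. The score of 6813 was 0.988 and 0.954 in ESCs, 0.906 and 0.842 in the Snord101-set controls, 0.834 and 0.853 with the Snord101 ASO, 0.851 and 0.786 in the Snord89-set controls and 0.868 and 0.868 with the Snord89 ASO. It rested on 2 and 6 ends in ESCs, where the flanks averaged 162 and 131, and on 15 to 39 ends in neurons, where they averaged 137 to 221. The score of 6814 was 0.977 and 0.950 in ESCs and 0.818 to 0.866 in neurons. Position 6812 was at 0.860 and 0.827 in ESCs and at 0.755 to 0.856 in neurons, and with the median of the flanks it fell just below 0.75 in 1 control, at 0.741. Groups overlapped at 6813 in the Snord101 set and not in the Snord89 set, and neither ASO moved it past a test.

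Position 6020, in window 2, was the farthest from the junction of the 12 positions protected in the controls. Its score was 1.000 and 0.939 in ESCs on 0 and 1 ends, 0.883 and 0.867 in the Snord101-set controls, 0.876 and 0.874 with the Snord101 ASO, 0.903 and 0.905 in the Snord89-set controls and 0.792 and 0.885 with the Snord89 ASO. In neurons it had 10 to 21 ends against flanks of 87.0 to 171. Whether the ribose at these positions carries a methyl group was not tested.

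**Figure D5:**
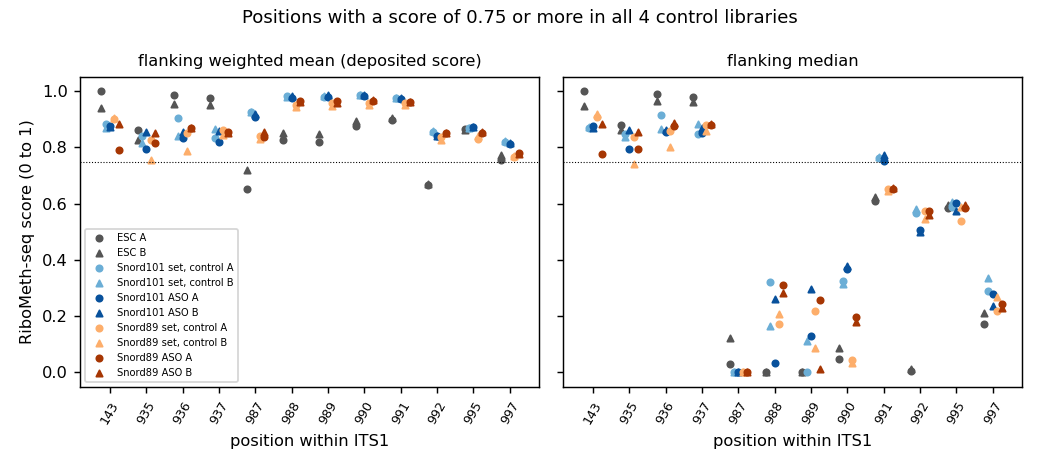
RiboMeth-seq score (0 to 1) of the 12 ITS1 positions at 0.75 or more in all 4 control libraries, by position within ITS1, from the weighted mean of the flanks (left) and from their median (right), 1 point per library (circles A, triangles B). With the median, the 8 positions from 987 on drop, most of them far, and 143, 936 and 937 stay above the dotted line at 0.75 in every library.

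Neither ASO changed a score in ITS1 past the threshold. The score test was edgeR's quasi-likelihood test with the flanking mean as offset, over positions with a mean score of 0.5 or more. For Snord101, 105 ITS1 positions were tested and 0 passed, against 1.01% of 1583, with 4 at an unadjusted p under 0.05 (14.2% over the 45S) and 0 by DESeq2, against 5.12%. For Snord89, 103 were tested and 0 passed, against 0.546% of 1465, with 9 at an unadjusted p under 0.05 (12.4% over the 45S) and 1 by DESeq2 (0.971%, against 2.53%). That 1 was position 6875, in the junction, with scores of 0.511 and 0.484 in the controls and 0.584 and 0.581 with the ASO (log2 ratio of ends to flanks -0.27, SE 0.06, edgeR adjusted p = 0.103, DESeq2 adjusted p = 0.00799). The groups did not overlap there, and in the Snord101 set the scores were 0.617 and 0.616 against 0.636 and 0.636 (log2 -0.07, edgeR adjusted p = 0.726).

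The other positions of lowest p were spread over the spacer. In the Snord89 set position 6867 scored 0.957 and 0.951 in the controls and 0.967 and 0.968 with the ASO (log2 -0.48, edgeR adjusted p = 0.225), and position 5879 had a log2 ratio of -1.67 (edgeR adjusted p = 0.142), and -0.75 without control B. In the Snord101 set position 6737 scored 0.526 and 0.466 against 0.682 and 0.738 (log2 -0.79, edgeR adjusted p = 0.301), and position 6485 scored 0.632 and 0.558 against 0.728 and 0.735 (log2 -0.59, edgeR adjusted p = 0.323). Position 5879 gave a log2 ratio of -1.65 there with overlapping groups (edgeR adjusted p = 0.323), and 0.075 without control A.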

How the data were processed

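RiboMeth-seq libraries of 2 ESC and 8 neuron samples were used, per the labels as 5 groups of 2. RNA was hydrolysed for 1 to 12 minutes. Trim Galore, cutadapt, Bowtie2 and bedtools are named in the submitters' processing notes; versions, reference sequence and read filters are not given in the sources used here. The authors deposited, for each position and library, an integer count of read ends, 5′ ends in the ESC table and 5′ plus 3′ ends in both others, per the file headers. The deposited score is a fraction from 0 to 1; at the ITS1 positions compared, 1 minus the ends over the weighted mean of 6 positions on each side (weights 1 to 0.5, floored at 0) was within 1e-06 of it in each library. Repeated reads carry no molecular identifiers, so limits cover counting error only.

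Ends were divided by the library's 45S ends and multiplied by 1000000 (EPM). Windows, positions (mean count of 10 or more) and scores were tested over the whole 45S with edgeR 4.0.16 in R 4.3.3, with no block and Benjamini-Hochberg adjustment at 0.05, and with DESeq2 1.42.0 as an alternative. The fit was tested on simulated data. Log2 ratios are ASO over control, and SE is the ratio over the root of the F statistic. Single values took an exact two-sided permutation test. Named positions are the 10 of highest level, those past the threshold or else the 3 of lowest p in each test, and the protected positions shared by ESCs and controls. ITS1 was defined by coordinate, but it and the lists were chosen for description with earlier results of these data known. Replicate letters do not pair the libraries by label. The sequence of the other ASO is not reported here.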

Additional observations from a re-analysis of the deposited data

Results flagged for a closer look

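The median ITS1 position moved in opposite directions with the 2 ASOs. It had 0.803 and 0.730 EPM in the Snord101-set controls and 0.838 and 0.933 with the Snord101 ASO (log2 0.21), and 0.921 and 1.03 in the Snord89-set controls and 0.823 and 0.847 with the Snord89 ASO (log2 -0.22). Both Snord101 ASO libraries lay above their controls and both Snord89 ASO libraries below theirs. The difference of the 2 effects was 0.432 on the log2 scale. Relabelling ASO and control within each set in all 36 ways gave an exact permutation p of 0.0556, the smallest it can give. Since ASO and control libraries were fully separated in both sets, this p restates that separation and is no further evidence. For the ITS1 body the difference was 0.396 (exact permutation p = 0.111). On the scale of ends outside the dense runs the median log2 ratio over the tested ITS1 positions was 0.34 for Snord101 and 0.006 for Snord89.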

How the results depend on the processing

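Of 176 alternatives for 20 single positions or windows, 141 kept direction and side of the threshold, 30 newly passed, 4 lost a call and 1 reversed, position 5879 in the Snord101 score test (0.075 without control A). The Snord89 total changed sign to -0.25 without the first and last 20 positions, -0.22 for the median over positions and -0.25 for the body (added after seeing the data), and ran from -0.0043 to 0.17 without 1 library. Protected ESC positions were 139 at a score of 0.5, 22 at 0.9, 11 with flanks of 100, 39 with the median of the flanks (added) and 82 to 108 with 1 library alone. Protected control positions were 53 at a score of 0.5, 4 at 0.9 and 4 with the median. Windows called for Snord101 were 1 by DESeq2 and 0 to 1 without 1 library, and positions were 0 with TMM, 59 with ends outside the dense runs as library size (53 higher, 6 lower; 5.94%, against 4.22% over the 45S), 0 with a count minimum of 100 and 4 to 95 without 1 library. Without 1 library, score calls were 0 to 5 for Snord101 (5 without control B, 4.59%, against 22.4% over the 45S) and 0 to 1 for Snord89 (1 without ASO library A, 0.980%, against 6.91%; DESeq2 1, 0.971%, against 2.53%), Snord89 windows 0 to 9 and positions 3 to 139, and interaction positions 0 to 1, the 1 without Snord101-set control B. The 1 interaction position lay below 0, in a fit with 1 Snord101-set control left. The share of ITS1 positions called in that fit was smaller than the share over the 45S. The causes were not tested.

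The labels give the letters A and B in each group and no pairing. With the letter as a replicate block, Snord89 positions called went from 0 to 10, all lower (1.02%, against 3.80% over the 45S), among them 6650 (adjusted p = 0.0179), 6587 (0.0280) and 5879 (2.4e-05). Snord101 positions stayed at 2 in number (6753 at adjusted p = 0.0692), and windows and scores stayed at 0. Deviations of same-lettered libraries correlated at -0.255 in the Snord101 set (12947 positions) and 0.113 in the Snord89 set. A crossed replicate block, added for the Snord101 set, called 15 positions (1.51%, against 4.51%) and 0 windows. Depth limits the low positions: 1 ESC end is worth 0.0529 or 0.0618 EPM, and the called Snord101 positions rest on 26 to 85 ends.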
